A study of Mus musculus with 2 samples.

Results

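The nuclei described here were adipocyte nuclei of mouse brown adipose tissue that carried transcripts of Nnat, Slc7a10, Tshr and Aldh1a1, a group that resembles white adipocytes and is called the Nnat and Slc7a10 nuclei below. They were 108 of the 6872 deposited cell barcodes, 83 of 2551 from the TN library and 25 of 4321 from the 1cyc library. A barcode was used when 200 or more genes were detected and less than 5% of its UMIs, the molecular identifiers that count each captured transcript once, came from mitochondrially encoded genes. It was taken as an adipocyte nucleus when the summed UMIs of 8 adipocyte genes (Pparg, Ppara, Acsl1, Pde3b, Lipe, Plin1, Acvr1c and Cidea) were at least 3 and exceeded those of 8 genes of other cell classes (Pdgfra, Dcn, Lama2, Ptprb, Flt1, Mrc1, F13a1 and Ttn). An adipocyte nucleus with at least 4 UMIs summed over Nnat, Slc7a10, Tshr and Aldh1a1 belonged to the group, and adipocyte nuclei of the same library with at most 1 such UMI, 966 in TN and 910 in 1cyc, served as reference adipocytes.

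Both libraries came from brown adipose tissue of C57BL/6 mice, an inbred laboratory strain with no introduced allele named in the labels. The TN mice lived at thermoneutrality, the ambient temperature at which the body needs no extra heat production, and the 1cyc mice had passed through a brief cold challenge 4 days before collection. Each library pooled the nuclei of 5 mice, sorted on the DNA stain DAPI and captured on the 10X Genomics droplet platform, with no record of which mouse gave a nucleus. The sources used here give neither age nor sex. With 1 library per condition there was no replicate and no test was possible, so condition and library cannot be told apart, genes were counted by the size of a ratio alone, and every interval in parentheses is a 95% interval for counting error only.

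Brown adipocytes burn fatty acids and glucose in many mitochondria to make heat, a programme that noradrenaline switches on in the cold and that ends in the uncoupling protein Ucp1. White adipocytes store triglyceride in a large droplet, secrete hormones such as leptin and hold few mitochondria. Slc7a10 encodes Asc-1, a transporter of small neutral amino acids known as a surface marker of white adipocytes. Nnat, neuronatin, is an imprinted gene for a small membrane protein of the endoplasmic reticulum, Tshr is the thyrotropin receptor, and Aldh1a1 is a retinaldehyde dehydrogenase that makes retinoic acid.

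On mm10, Nnat lies at chr2:157560078-157562522 on the plus strand, Slc7a10 at chr7:35186385-35201114 on the plus strand, Tshr at chr12:91384563-91549808 on the plus strand and Aldh1a1 at chr19:20492715-20643465 on the plus strand, per GENCODE M21. Nnat lies wholly in an intron of Blcap, which runs on the minus strand, in 3 of the 3 Blcap transcripts that span it. The sources used here do not say whether counting used strand, so reads of Nnat and Blcap may not be separable. The promoter windows of 3 of the marker genes are shown because these genes define the group, and that of Ucp1, at chr8:83290352-83298452 on the plus strand, because it is the defining gene of the brown programme that the group carried at a low level. Each window is the 250 bases before the RefSeq start on GRCm38.p6, 5′ to 3′ on the plus strand: chr2:157559828-157560077 for Nnat, chr7:35186135-35186384 for Slc7a10, chr19:20492333-20492582 for Aldh1a1 and chr8:83290098-83290347 for Ucp1. Capitals mark matches on either strand.
Nnat: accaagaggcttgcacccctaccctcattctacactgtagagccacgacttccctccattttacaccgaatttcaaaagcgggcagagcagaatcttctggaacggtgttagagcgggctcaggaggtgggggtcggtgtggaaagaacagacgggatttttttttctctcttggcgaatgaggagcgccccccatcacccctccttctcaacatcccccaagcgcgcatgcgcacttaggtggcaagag
Slc7a10: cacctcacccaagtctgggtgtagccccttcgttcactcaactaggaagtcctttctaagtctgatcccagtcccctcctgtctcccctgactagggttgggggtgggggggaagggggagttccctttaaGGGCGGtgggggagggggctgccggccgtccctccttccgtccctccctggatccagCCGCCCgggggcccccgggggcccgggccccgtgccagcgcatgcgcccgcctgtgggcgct
Aldh1a1: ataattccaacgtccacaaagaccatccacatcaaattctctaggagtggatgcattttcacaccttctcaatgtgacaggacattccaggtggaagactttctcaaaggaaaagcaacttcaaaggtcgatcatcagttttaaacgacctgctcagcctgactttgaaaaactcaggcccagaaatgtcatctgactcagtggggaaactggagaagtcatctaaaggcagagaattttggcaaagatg
Ucp1: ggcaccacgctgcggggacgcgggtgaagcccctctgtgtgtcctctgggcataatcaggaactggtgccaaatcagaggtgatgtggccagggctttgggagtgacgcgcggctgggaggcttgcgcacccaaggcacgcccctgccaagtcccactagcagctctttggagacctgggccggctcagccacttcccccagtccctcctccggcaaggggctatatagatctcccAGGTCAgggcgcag
The motifs searched were AGGTCA, a core site of nuclear receptors, GGGCGG, the GC box, CCAAT and TATAAA, each on both strands, and no matches overlapped. The Slc7a10 window held the GC box 119 and 62 bases before the start, the second on the other strand, and the Ucp1 window held AGGTCA 14 bases before the start. The Nnat and Aldh1a1 windows held none of these letters. Aldh1a1 has 2 RefSeq starts, and the window shown is that of the start nearer to the GENCODE start. This window ends at 20492582, before the GENCODE start at 20492715, and the bases between them were not searched. Of 32851 RefSeq windows of the same length, 14.0% held AGGTCA, 32.7% the GC box, 33.8% CCAAT and 12.4% TATAAA. CG dinucleotides numbered 12 in the Nnat, 14 in the Slc7a10, 3 in the Aldh1a1 and 12 in the Ucp1 window, against a median of 6 over all windows.

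Members were few, but their nuclei were rich in UMIs. They made up 7.52% of 1103 TN adipocyte nuclei (6.04 to 9.24) and 2.63% of 951 1cyc adipocyte nuclei (1.71 to 3.86). The median member held 1609 UMIs in TN and 1205 in 1cyc, against 832 and 888 in the reference, and a sum of at least 4 UMIs is reached more easily in a deep nucleus. Among nuclei with at least 1000 UMIs the share was 14.7% in TN (61 of 414, 11.5 to 18.5) and 3.72% in 1cyc (16 of 430, 2.14 to 5.97). Deposited barcodes started at 500 UMIs in TN and at 262 in 1cyc, and the median mitochondrial share over all deposited barcodes was 4.76% in TN and 22.1% in 1cyc. The filter therefore kept 1303 of 2551 TN barcodes and 1065 of 4321 1cyc barcodes, and the part of this unequal loss in the difference between the shares was not tested. Both libraries shared 6 barcodes, of which 1 passed the filter and 0 were members.

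Nnat carried most of the marker UMIs, and the 4 genes were not always seen together. The sum ranged from 4 to 99 UMIs in TN members with a median of 11, and its median was 9 in 1cyc members with a highest value of 47. Just inside the threshold lay 7 TN and 3 1cyc nuclei at 4 UMIs, and just outside it 16 TN and 5 1cyc nuclei at 3 UMIs. Nnat gave 70.3% of the marker UMIs in TN and 78.2% in 1cyc. All 4 genes were detected in 20 of 83 TN members and 3 of 25 1cyc members, and Nnat was the only gene detected in 16 and 3. These values chose the members and are given as a description only. Of the adipocyte genes of the rule, Pparg, the master regulator of fat cell differentiation, had a UMI in 81 of 83 TN members. The TN reference held it in 925 of 966 nuclei. Its part of all UMIs was lower in TN members, 524 of 142301 against 4526 of 964572. Ppara had a UMI in 50 TN members and 912 reference nuclei. Cidea, a droplet protein that marks brown adipocytes in mice, had a UMI in 7 and 428. Acsl1, Pde3b, Lipe, Plin1 and Acvr1c were seen in a larger share of TN members than of reference nuclei, but members were deeper. Their parts of the same 142301 and 964572 UMIs were also higher in TN members. The UMIs were 225 against 1225 for Acsl1, 436 against 2240 for Pde3b and 180 against 530 for Lipe. They were 114 against 394 for Plin1 and 142 against 355 for Acvr1c. The parts of Ppara, 114 against 4953 UMIs, and Cidea, 9 against 660, were lower, like that of Pparg. In 1cyc, Ppara had a UMI in 13 of 25 members and 873 of 910 reference nuclei, and Cidea in 0 and 464.

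**Figure D1:**
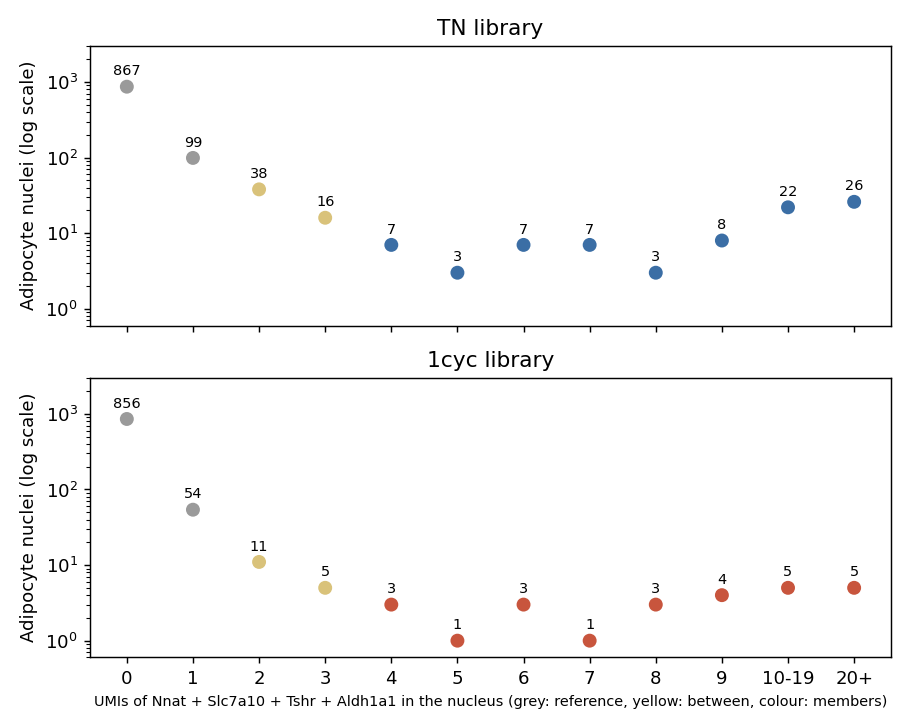
Number of adipocyte nuclei (log axis) by the summed UMIs of Nnat, Slc7a10, Tshr and Aldh1a1 in the nucleus, for TN (top) and 1cyc (bottom). Grey points are reference adipocytes, yellow points nuclei with 2 or 3 UMIs, and coloured points members; 867 TN and 856 1cyc nuclei held 0 UMIs, and 26 and 5 held 20 or more.

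Each marker was then read in nuclei chosen without it. Adipocyte nuclei with at least 3 UMIs of the other 3 genes were set against those with 0. The level of Nnat was 6490 counts per 1000000 UMIs (CPM) in 55 such TN nuclei and at 289 CPM in 945 nuclei without the other markers, 22.5 times as high (19.5 to 26.0). The 17 such nuclei of 1cyc held Nnat at 5856 CPM and 879 others at 47.9 CPM, a ratio of 122 (87.2 to 175). The members were chosen by the measured UMIs of all 4 genes, so these ratios are a description. Slc7a10 stood at 704 and 19.7 CPM in the TN nuclei, a ratio of 35.8 (21.3 to 63.7), and in 1cyc at 629 CPM (26 UMIs) against 0 UMIs in 856 nuclei. Tshr had ratios of 20.99 in TN (15.0 to 29.8) and 14.3 in 1cyc (8.62 to 23.6). Aldh1a1 had ratios of 18.5 in TN (12.7 to 27.4) and 22.7 in 1cyc (10.5 to 49.2), but it is also a gene of other cells of this tissue: non-adipocyte nuclei held it at 492 (TN) and 640 CPM (1cyc). Slc7a10, in contrast, had 0 UMIs in the non-adipocyte nuclei of both libraries.

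All other genes were compared in UMIs summed over members and over reference adipocytes of the same library. With the 4 marker genes included, the member sums were 142301 in TN and 36357 in 1cyc. CPM in these comparisons is per 1000000 summed UMIs without the 4 marker genes, and a gene was measured when at least 10 UMIs were expected in the smaller sum. In TN, 2517 genes were measured: members were 2-fold or more above the reference for 199 (7.91%) and 2-fold or more below it for 388 (15.4%). The median log2 ratio was -0.07, and 45.2% of the genes lay above 1. In 1cyc, 534 genes were measured: members were 2-fold or more above the reference for 45 (8.43%) and below it for 136 (25.5%). There the median log2 ratio was -0.28, and 38% of the genes lay above 1. Because that median lay below 0, other scalings moved the 1cyc split, to 68 higher and 107 lower with TMM and to 70 and 106 with the median of ratios. A gene scarce in the reference was measured only where members held it at a high level. Gene lists are therefore also given as the summed CPM of all their genes, measured or not. Single genes named from the lists, and some of those named from the TN ranks, are also given where they fell below this limit. In 1cyc this holds for Igf1, Plin4, Abcd2, Ccdc80 and Slit3, among others.

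White adipocyte genes stood far higher in members than in reference adipocytes. The list of 13 such genes summed to 10368 CPM in TN members and 1596 CPM in the reference, 6.50 times as high (6.04 to 6.98), and in 1cyc to 10110 and 1601 CPM, 6.32 times as high (5.62 to 7.09). In non-adipocyte nuclei it summed to 563 and 509 CPM. Car3, carbonic anhydrase 3, an abundant enzyme of white fat, held 72.5% and 71.7% of the members' list UMIs. Its level was 7515 CPM in TN members and 1006 CPM in their reference, a ratio of 7.47 (6.84 to 8.16). The 1cyc levels were 7249 and 1160 CPM, a ratio of 6.25 (5.44 to 7.16). Without Car3 the list ratio was 4.84 in TN (4.25 to 5.50) and 6.49 in 1cyc (5.18 to 8.08). Of the 13 genes, 4 were measured in TN, all at least 2-fold higher, and in 1cyc Car3 alone was measured. The list was chosen with earlier results of these data known. Other genes of the list with hormonal roles pointed the same way on small counts. Npr3, the natriuretic peptide clearance receptor, had ratios of 4.48 (3.68 to 5.46) and 5.19 (3.58 to 7.36). Lep, leptin, rested on 26 UMIs in TN members and 5 in 1cyc members, with ratios of 4.81 (2.80 to 8.16) and 5.65 (1.68 to 15.2). Retn, resistin, rested on 21 and 3 UMIs, with ratios of 16.0 (7.01 to 39.6) and 19.5 (2.85 to 115). Cfd, adipsin, had ratios of 4.06 (2.65 to 6.16) and 6.49 (2.75 to 13.7). Not every gene of the list was present: Agt, Tcf21, Sncg, Hoxc8, Hoxc9 and Hoxc10, the last 3 positional genes of subcutaneous white fat, were at 0 UMIs in the members of both libraries.

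The summed level of an adipocyte identity list without the rule's genes was above the reference, though single genes went either way. The identity list, led by Ghr, Cidec, Lpl and Fabp4, had a ratio of 1.91 in TN (1.84 to 1.99) and 1.71 in 1cyc (1.59 to 1.84). Ghr held 1279 of the list's 3349 UMIs in TN members and 207 of 790 in 1cyc members. The list was not summed without Ghr. Of its 12 genes measured in TN, 10 were higher, 6 of them at least 2-fold. Of 10 measured in 1cyc, 6 were higher, 5 of them at least 2-fold, and 1 was at least 2-fold lower. Lpl, the lipase that frees fatty acids from circulating triglyceride, had ratios of 2.42 (2.06 to 2.84) and 2.10 (1.59 to 2.71). Adipoq, adiponectin, had ratios of 2.37 (1.48 to 3.68) and 2.01 (0.943 to 3.82), the second interval including 1.

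The lipid droplet list was higher in members, with single genes on either side of the reference. Cidec, which drives droplets to fuse and grow, stood at 2001 CPM in TN members and 438 CPM in their reference, a ratio of 4.57 (3.92 to 5.33). The 1cyc levels were 2278 and 554 CPM, a ratio of 4.11 (3.22 to 5.20). Plin4, a droplet coat protein of white adipocytes, had ratios of 8.92 (6.40 to 12.5) and 5.55 (3.33 to 8.86). Plin2, the coat protein of small droplets, had a ratio of 1.07 in TN (0.625 to 1.75) and 0.243 in 1cyc (0.0498 to 0.716; 3 UMIs in members). The whole list had ratios of 3.29 in TN (2.93 to 3.69) and 1.88 in 1cyc (1.56 to 2.26), with 3 of 5 measured genes higher by 2-fold or more in TN, and in 1cyc 1 of 3 higher and 1 lower by that much. For triglyceride synthesis and fatty acid uptake the ratios were 1.24 (1.16 to 1.32) and 1.12 (1.00 to 1.26).

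Adrb3, the β3-adrenergic receptor through which noradrenaline acts on rodent fat cells, was among the genes with the largest ratios, and it lies at chr8:27225776-27250616 on the minus strand. Its level was 674 CPM in TN members (95 UMIs) and 18.7 CPM in the reference (18 UMIs), a ratio of 36.1 (21.7 to 63.6). In 1cyc, where it was below the limit for a measured gene, it stood at 1167 CPM (42 UMIs) and 39.6 CPM (37 UMIs), a ratio of 29.5 (18.5 to 47.2). Members were thus far above the reference in both libraries. In TN, Adrb3 passed the limit for a measured gene only through its UMIs in members. Other genes of the same pathway were lower. Adra1a, an α1-adrenergic receptor, had ratios of 0.206 (0.102 to 0.372) and 0.336 (0.134 to 0.697). Gnas, which encodes the stimulatory G protein that couples β-adrenergic receptors to cyclic AMP, had ratios of 0.274 (0.207 to 0.355) and 0.247 (0.152 to 0.378). The adrenergic and lipolysis list as a whole had ratios of 0.676 (0.621 to 0.734) and 0.644 (0.559 to 0.739). Gnas is an imprinted gene too, and the list of imprinted genes, to which Nnat belongs by its biology although it was left out of every list, had summed ratios of 0.832 in TN (0.762 to 0.906) and 0.799 in 1cyc (0.679 to 0.934). In TN 7 of 13 measured genes were higher and 6 lower, and in 1cyc 2 of 5 were higher and 3 lower. Besides Gnas, the lower genes included Airn, a noncoding RNA that overlaps Igf2r and whose counts are therefore uncertain, with ratios of 0.497 (0.395 to 0.619) and 0.337 (0.183 to 0.567). Peg3 had ratios of 5.49 (3.98 to 7.55) and 5.06 (3.05 to 8.04), Sgce 3.68 (2.38 to 5.59) and 6.49 (2.59 to 14.4), and Grb10, an adaptor that inhibits the insulin receptor, 3.89 (2.38 to 6.26) and 10.4 (3.30 to 28.3). Blcap, the host gene of Nnat, had ratios of 1.76 (1.23 to 2.48) and 3.46 (1.99 to 5.68). In 1cyc Peg3, Sgce, Grb10 and Blcap were below the limit for a measured gene. Of the 5 imprinted genes measured there, 0 were 2-fold or more higher and 2 that much lower.

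Several genes of amino acid uptake other than Slc7a10 were also higher. The amino acid transporter list, from which Slc7a10 was left out, had a ratio of 2.58 in TN (2.39 to 2.79) and 2.02 in 1cyc (1.74 to 2.34). Slc1a3, a glutamate and aspartate transporter, stood at 2760 CPM in TN members and 562 CPM in their reference, a ratio of 4.91 (4.30 to 5.61). The 1cyc levels were 1944 and 359 CPM, a ratio of 5.41 (4.12 to 7.02). Slc1a5, a transporter of glutamine, had ratios of 3.41 (3.01 to 3.85) and 2.46 (1.96 to 3.04), and Slc6a6, the taurine transporter, 2.98 (1.97 to 4.43) and 2.47 (1.15 to 4.73). Slc36a2, a small amino acid transporter that marks brown adipocytes, went the other way, with ratios of 0.406 (0.248 to 0.630) and 0.340 (0.124 to 0.745). Of the 6 genes measured in TN, 3 were 2-fold or more above the reference and 2 that far below it, and of the 3 in 1cyc, 2 above and 1 below.

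Receptors of growth hormone and insulin were higher in members. Ghr, the growth hormone receptor, stood at 9076 CPM in TN members and 3388 CPM in their reference, a ratio of 2.68 (2.51 to 2.86). The 1cyc levels were 5750 and 2367 CPM, a ratio of 2.43 (2.10 to 2.80). It held 87.2% and 80.9% of the members' UMIs of the growth hormone and IGF list. Igf1, the growth factor that growth hormone induces, had ratios of 18.0 in TN (11.1 to 30.1; 63 against 24 UMIs) and 26.0 in 1cyc (7.77 to 86.8; 7 against 7 UMIs). The list had ratios of 2.55 (2.40 to 2.71) and 2.34 (2.05 to 2.66). In the insulin signalling list, Irs1, a docking protein of the insulin receptor, had ratios of 2.93 (2.20 to 3.87) and 2.87 (1.63 to 4.74), and Insr, the receptor itself, 1.82 (1.46 to 2.26) and 2.12 (1.41 to 3.08). That list had ratios of 1.46 (1.35 to 1.57) and 1.26 (1.07 to 1.46), with 12 of 17 measured genes higher in TN and 3 of 5 in 1cyc.

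Further genes were named by rank in TN. Prr16 had the largest ratio among them, 44.8 (24.8 to 87.5; 85 against 13 UMIs), and Dock11, a guanine nucleotide exchange factor, had 30.2 (17.7 to 54.5). Prr16, Dock11, Scn7a and Cyp2e1 were so scarce in the reference that they were measured only through their UMIs in members. Only a high ratio could place them among the measured genes. Slit3, a secreted ligand of Robo receptors, had TN levels of 3349 and 238 CPM, a ratio of 14.0 (11.97 to 16.5), and 1cyc levels of 3361 and 125.1 CPM, a ratio of 26.9 (20.7 to 34.9). Abcd2, a peroxisomal importer of very long chain fatty acids, had ratios of 11.9 (9.16 to 15.6) and 19.8 (11.8 to 33.0). The peroxisomal list summed to ratios of 1.96 (1.77 to 2.17) and 1.41 (1.14 to 1.73). Abcd2 alone held 157 of its 471 UMIs in TN members and 29 of 98 in 1cyc members, against 90 of 1645 and 38 of 1799 in the reference. Without Abcd2, a sum computed after the values were seen, the list had ratios of 1.38 (1.22 to 1.56) and 1.02 (0.788 to 1.29). Cyp2e1, a cytochrome P450 enzyme, had a ratio of 17.2 in TN (10.7 to 28.6), Eepd1 16.2 (12.7 to 20.7), Scn7a 18.2 (11.7 to 28.9), St6galnac5 11.5 (8.57 to 15.5) and Auts2 10.5 (8.43 to 13.1). In 1cyc Cyp2e1 stood at 250 CPM in members (9 UMIs) and 10.7 CPM in the reference (10 UMIs). Values in 1cyc are not given here for Prr16, Dock11, Eepd1, Scn7a, St6galnac5 and Auts2.

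Matrix genes were higher in members, and in TN some markers of fibroblasts and macrophages were higher too. Ccdc80, a secreted matrix protein, had TN levels of 859 and 36.3 CPM, a ratio of 23.7 (16.1 to 35.5), and in 1cyc 18 UMIs in members and 18 in the far larger reference sum, a ratio of 26.0 (12.7 to 52.9). Lama4, a laminin chain of the adipocyte basement membrane, had ratios of 2.55 (2.13 to 3.04) and 2.59 (1.87 to 3.50). The matrix list had ratios of 2.45 (2.20 to 2.73) and 2.57 (2.09 to 3.14). Lama4 held 36.9% and 43.1% of the members' list UMIs, and without it the ratios were 2.40 (2.10 to 2.74) and 2.56 (1.94 to 3.33). All 7 genes measured in TN were higher, 2 of them at least 2-fold, and in 1cyc 1 gene was measured. The list summed to 3364 CPM in TN members and 4822 CPM in non-adipocyte nuclei, and to 3028 and 6370 CPM in 1cyc. Beside this, the fibroblast or progenitor list stood at 1221 CPM in TN members and 434 CPM in the reference, with 4878 CPM in non-adipocyte nuclei. The 1cyc levels were 444, 250 and 6559 CPM. The ratios of this list were 2.81 in TN (2.34 to 3.36) and 1.78 in 1cyc (0.999 to 2.95; 16 UMIs in members), the second interval including 1. Abca8a, Gsn and Bmper held most of the TN members' UMIs of that list, and Pi16, Dpp4, Cd34, Lum, Fbn1 and Mfap5 were at 0. The macrophage list stood at 291 against 124 CPM in TN and at 111 against 73.8 CPM in 1cyc. Mertk gave 37 of its 41 UMIs in TN members, whereas Csf1r, Cd163, Ptprc, Cd74 and Lyz2 were at 0. The endothelial list stood at 106 against 474 CPM in TN and at 167 against 198 CPM in 1cyc. The part of these other cell classes in the matrix result was not tested. A UMI of the 8 other-class genes of the rule was present in 16 of 83 TN members and 104 of 966 TN reference nuclei, and in 1 of 25 1cyc members and 84 of 910 1cyc reference nuclei. The rule limits these genes in both classes, and members were deeper than the reference.

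Thermogenic genes were far lower in members in both libraries. The list of 26 genes summed to 2427 CPM in TN members and 11377 CPM in their reference, a ratio of 0.213 (0.191 to 0.238). The 1cyc sums were 2166 and 13550.1 CPM, a ratio of 0.160 (0.126 to 0.200). Non-adipocyte nuclei held the list at 2591 and 3185 CPM. All 15 genes measured in TN were lower, 13 at least 2-fold, with a median log2 ratio of -2.45 against -0.07 over all genes. All 9 measured in 1cyc were lower, 8 at least 2-fold, with a median of -2.55 against -0.28. Ucp1 itself had 5 UMIs in TN members and 147 in the reference, a ratio of 0.233 (0.0745 to 0.556). In 1cyc members it had 0 UMIs against 268 in the reference, which makes it at least 3.44-fold lower when 3 counts are taken as the floor of the members' sum. Several regulators of the programme were lower too. Ppargc1b, a coactivator of mitochondrial genes, had ratios of 0.169 (0.122 to 0.228) and 0.171 (0.0953 to 0.282), Esrrg, an oestrogen-related receptor, 0.143 (0.110 to 0.182) and 0.115 (0.0613 to 0.198), and Prdm16, a determinant of brown fat identity, 0.127 (0.0462 to 0.279) and 0.172 (0.0353 to 0.506). Ebf2, a transcription factor of brown precursors, lay closer to the reference, at 0.515 (0.412 to 0.636) and 0.374 (0.221 to 0.593). Pank1, which starts coenzyme A synthesis, had ratios of 0.146 (0.105 to 0.197) and 0.0325 (0.00670 to 0.0951; 3 UMIs in members), and Pdk4, which holds back glucose oxidation, 0.180 (0.108 to 0.283) and 0.0323 (0.000816 to 0.180; 1 UMI). Without Ebf2, the list ratio was 0.175 and 0.136.

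Genes of mitochondrial fuel use were lower as well, and lipogenic genes differed in extent. Nuclear-encoded genes of the respiratory chain and citrate cycle had ratios of 0.384 (0.333 to 0.441) and 0.271 (0.197 to 0.363), with 14 of 15 measured genes lower in TN and 4 of 4 in 1cyc. Fatty acid oxidation genes had ratios of 0.506 (0.443 to 0.575) and 0.438 (0.339 to 0.557), with 11 of 13 and 6 of 6 measured genes lower, Hadha, a subunit of the trifunctional protein, at 0.262 (0.154 to 0.419) and 0.277 (0.101 to 0.607). Fatty acid synthesis genes had ratios of 0.633 (0.572 to 0.699) and 0.526 (0.441 to 0.622), with 7 of 8 and 7 of 7 measured genes lower. Elovl6, which elongates palmitate, had a ratio of 0.170 in TN (0.0810 to 0.316) and 0 UMIs against 583 in 1cyc, at least 7.48-fold lower. Acly, which supplies cytosolic acetyl-CoA, had 2 UMIs in TN members, a ratio of 0.107 (0.0128 to 0.394), and 0 against 319 in 1cyc, at least 4.09-fold lower. Acaca, acetyl-CoA carboxylase 1, was closer to the reference, at 0.815 (0.687 to 0.961) and 0.520 (0.377 to 0.701). Across all genes, the lowest ratios in TN also included Trim2 at 0.0439 (0.00529 to 0.160), Pde3a at 0.0433 (0.00109 to 0.245; 1 UMI in members) and Actn2 at 0 against 137 UMIs. Kcnk3, a potassium channel of brown fat, had 0 against 361 UMIs in 1cyc, at least 4.63-fold lower.

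**Figure D2:**
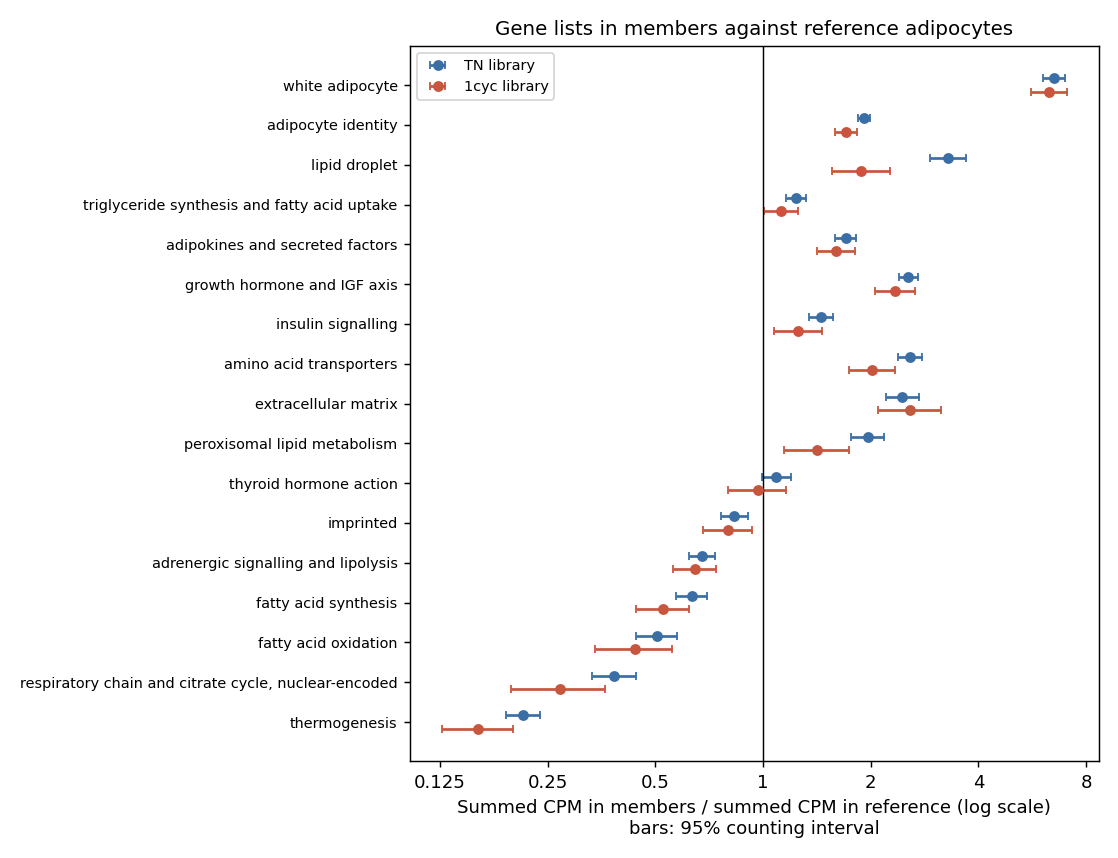
Summed CPM of each gene list in members divided by that in reference adipocytes of the same library (log axis), TN in blue and 1cyc in red, with 95% counting intervals as bars. The white adipocyte list lies at 6.50 and 6.32 and the thermogenesis list at 0.213 and 0.160, on opposite sides of 1 in both libraries.

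The profile was shared by both libraries, which share neither nuclei nor reference. Among 534 genes measured in each library, 26 were 2-fold or more higher in both, which is 76.5% of the 34 higher in TN and 57.8% of the 45 higher in 1cyc. Those 2-fold or more lower in both were 83, 80.6% of the 103 in TN and 61.0% of the 136 in 1cyc. None of the 534 was at least 2-fold apart in opposite directions. The Pearson correlation of the log2 ratios across these genes was 0.82, with genes at 0 in the members placed at the lowest ratio of the rest; the points share a pair of sums in each library and are not independent. The shared higher genes included Car3, Slc1a3 and Cidec. Tenm4, a teneurin, had ratios of 4.55 (3.87 to 5.34) and 3.78 (2.90 to 4.87), and Utrn, utrophin, 3.01 (2.58 to 3.49) and 4.20 (3.21 to 5.42). Zbtb16 had 3.36 (2.69 to 4.17) and 3.29 (2.32 to 4.54), and Ctdspl 3.22 (2.64 to 3.92) and 4.69 (3.37 to 6.39). The shared lower genes included, beside the thermogenic ones, Tusc3, Pitpnc1, Nav2, Itpr2, Ntrk3, Cdh2 and Me3. Ntrk3, the receptor of neurotrophin 3, had ratios of 0.162 (0.123 to 0.210) and 0.173 (0.104 to 0.271), and Itpr2, an intracellular calcium channel, 0.178 (0.126 to 0.244) and 0.0866 (0.0317 to 0.189).

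**Figure D3:**
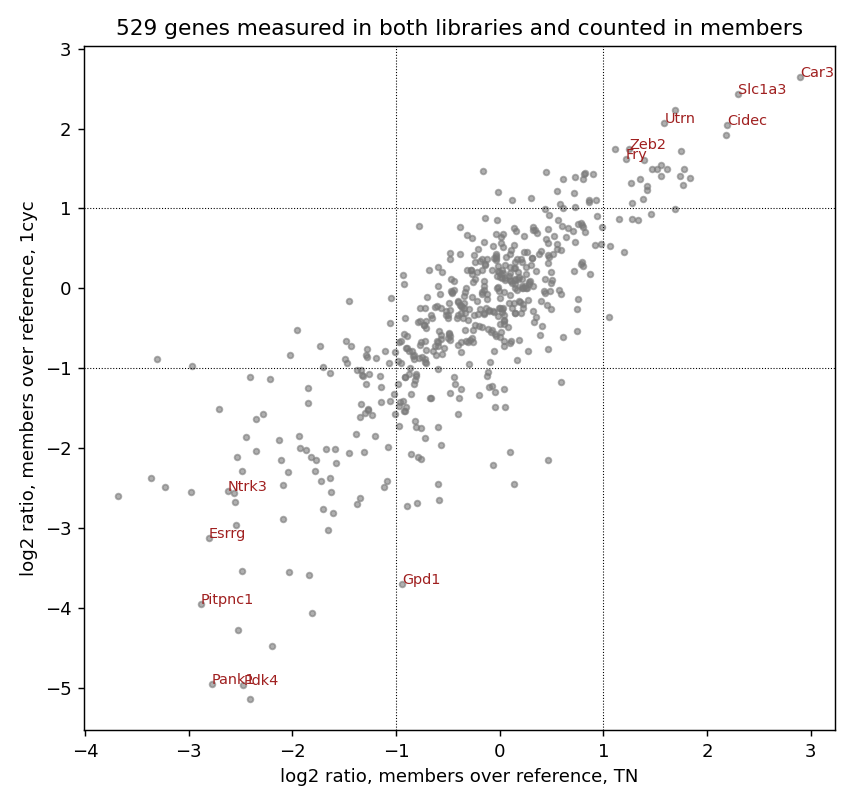
Log2 ratio of members over reference adipocytes in TN (horizontal axis) and 1cyc (vertical axis) for 529 genes measured in both libraries and counted in the members of both; 5 genes at 0 are left out, and dotted lines mark 2-fold. Car3 and Slc1a3 lie at the upper right and Pank1, Pdk4 and Esrrg at the lower left, and no gene lies past both lines on opposite sides.

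Per nucleus, the thermogenic and white lists separated members from most of the reference. Each nucleus was thinned to 500 UMIs, which left out 3 of 25 1cyc members and 156 of 910 1cyc reference nuclei, and none in TN. The median TN member then held 1 UMI of the thermogenesis list, with a range from 0 to 9, and the median reference nucleus 6, from 0 to 16. In 1cyc the medians were 1, from 0 to 4, and 7, from 0 to 18. At or above the reference median lay 6 of 83 TN members and 0 of 22 1cyc members, and the ranges of both classes overlapped in each library. For the white adipocyte list the medians were 5 UMIs in members and 0 in the reference in both libraries. Car3 had a UMI in 89.2% of TN members (80.4 to 94.9) and 90.9% of 1cyc members (70.8 to 98.9), against 31.6% and 36.7% of reference nuclei and 10.7% and 5.95% of non-adipocyte nuclei. Adrb3 had a UMI in 22.9% of TN members (14.4 to 33.4) and 22.7% of 1cyc members (7.82 to 45.4), against 0.621% and 1.46% of the reference and 0.592% and 0 of 84 non-adipocyte nuclei. Before thinning Adrb3 was seen in 47.0% and 44.0% of members and Car3 in 95.2% and 92.0%. Median depths before thinning were 1261 and 1030 UMIs in non-adipocyte nuclei.

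**Figure D4:**
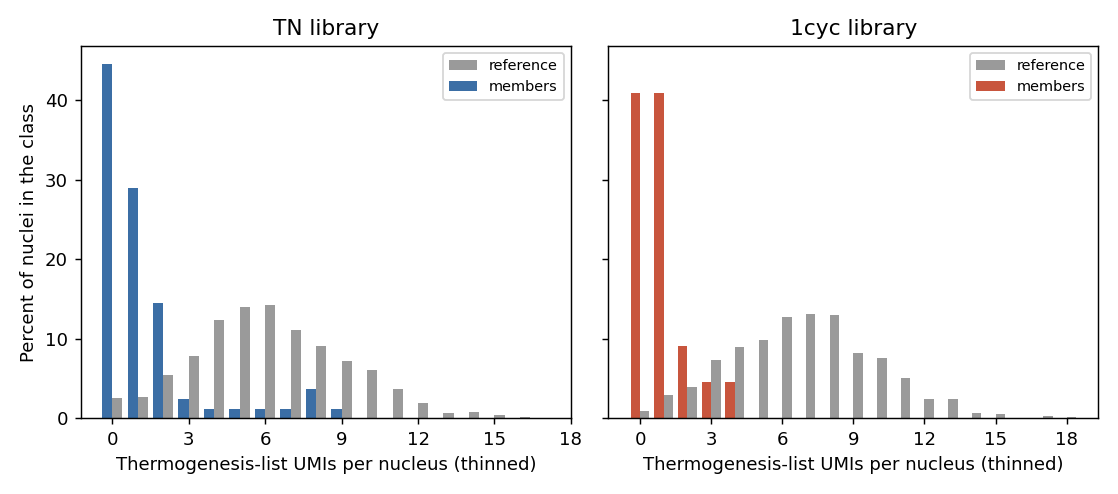
Percent of nuclei in a class (vertical axis) by the number of thermogenesis-list UMIs per nucleus after thinning to 500 UMIs, for TN (left) and 1cyc (right), members in colour and reference adipocytes in grey. Members pile up at 0 and 1 UMI, whereas the reference medians are 6 and 7.

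In TN the lists also differed with the number of marker UMIs outside the member class. The thermogenesis list stood at 11563 CPM in nuclei with 0 marker UMIs, 9909 CPM with 1, 6009 CPM with 2 or 3, 2516 CPM with 6 to 9 and 2243 CPM with 10 or more. The white adipocyte list went from 1569 through 1805, 3326 and 9085 to 11134 CPM over these bins. Nuclei with 2 or 3 marker UMIs thus lay between the reference and the members for both lists. Erythroid genes held 11809 of the 70062 UMIs of this TN bin, which lowers the CPM of all its other genes. The bin was not recomputed without haemoglobin-rich barcodes. The fibroblast or progenitor list also rose, from 374 CPM in TN nuclei with 0 marker UMIs to 912 CPM with 1 and 971 CPM with 2 or 3. The part of other cell classes in these TN bins was not tested. In 1cyc the nuclei with 2 or 3 marker UMIs held 10516 CPM of the thermogenesis list and 5088 CPM of the white list, against 13600 and 1607 CPM at 0 marker UMIs, but they were only 16. The 54 1cyc nuclei with 1 marker UMI held 12878 CPM of the thermogenesis list and 1523 CPM of the white list, so the white list was not higher there than at 0 marker UMIs. Bins of 4 or 5 marker UMIs, with 10 TN and 4 1cyc nuclei, and the other 1cyc bins of members, with 11 and 10 nuclei, are too thin for an order to be read.

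Few genes were 2-fold apart between the members of both libraries. Among 538 genes measured between the member sums, 1cyc was 2-fold or more above TN for 11 (2.04%) and below it for 22 (4.09%), with a median log2 ratio of 0.05. For reference adipocytes, 4.62% and 4.09% of 7700 genes were that far apart, a set that holds more genes of low level. The white adipocyte list had a 1cyc over TN ratio of 0.975 in members (0.867 to 1.09) and 1.00 in the reference (0.934 to 1.08). The thermogenesis list had 0.893 in members (0.689 to 1.14), an interval that includes 1, and 1.19 in the reference (1.16 to 1.22). For the fatty acid synthesis list the ratio was 1.27 in members (1.04 to 1.54) and 1.53 in the reference (1.47 to 1.59). For the lipid droplet list it was 1.09 (0.886 to 1.33) and 1.91 (1.76 to 2.07). These differences between members and reference were not tested.

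Single lipid genes are given with their UMIs in members, which were few for most of them. Acaca had a 1cyc over TN ratio of 1.08 in members (0.753 to 1.51; 160 and 44 UMIs) and 1.69 in the reference (1.57 to 1.80). Acly had 2 UMIs in TN members and 0 in 1cyc members, and a ratio of 2.57 in the reference (2.09 to 3.18). Fasn, fatty acid synthase, had 4 and 1 UMIs in members and a ratio of 7.59 in the reference (4.03 to 15.8). Scd1, the stearoyl-CoA desaturase, had 15 and 6 UMIs in members, a ratio of 1.57 (0.498 to 4.27), and 3.27 in the reference (2.46 to 4.39). For Acly (0 to 20.8), Fasn (0.0199 to 9.89) and Scd1 the interval in members included both 1 and the ratio of the reference. Whether members shared the reference's difference cannot be read from these counts. Pnpla3, a lipase-family gene of lipogenic cells, had 9 and 10 UMIs in members, a ratio of 4.35 (1.59 to 12.1), and 3.51 in the reference (2.81 to 4.43). Plin2 had 19 and 3 UMIs in members, a ratio of 0.618 (0.117 to 2.10), and 2.74 in the reference (2.21 to 3.40), so the upper bound in members lay below the lower bound in the reference.

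**Figure D5:**
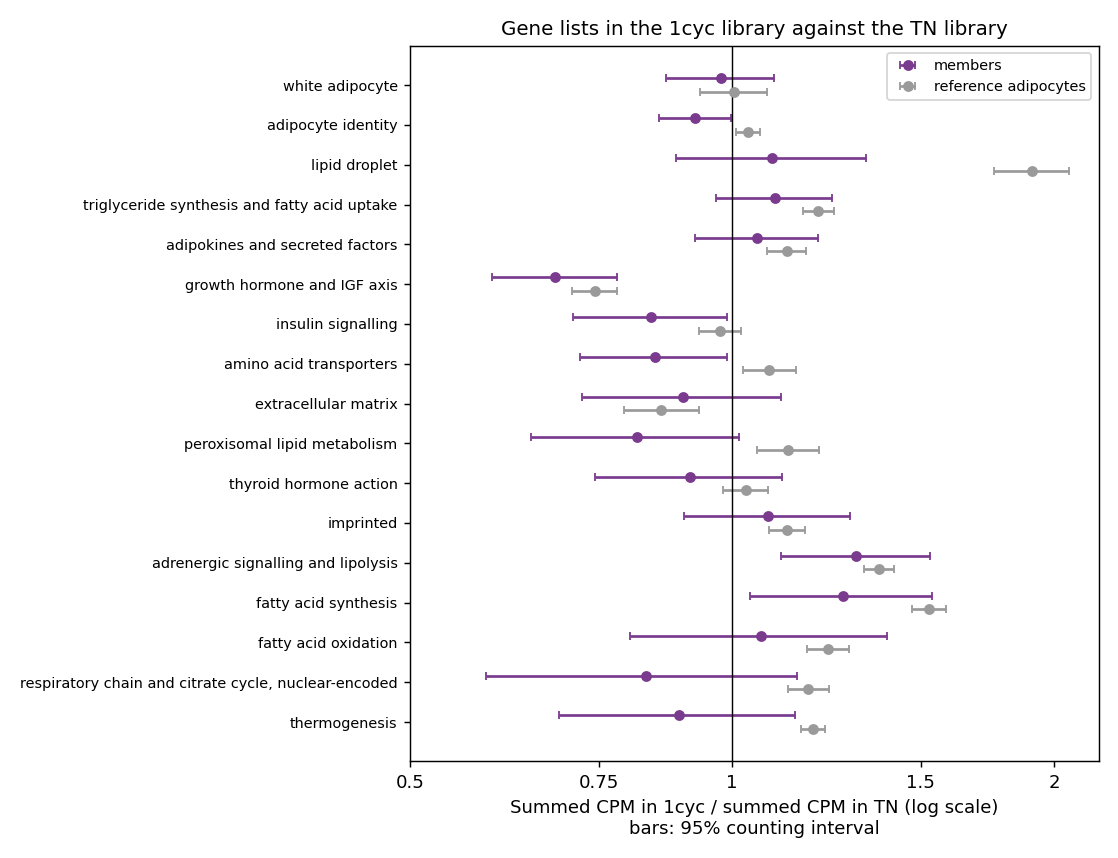
Summed CPM of each gene list in 1cyc divided by that in TN (log axis), for members in purple and reference adipocytes in grey, with 95% counting intervals as bars. The lipid droplet list lies at 1.09 in members and 1.91 in the reference, and the white adipocyte list at 0.975 and 1.00.

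Among the genes named by rank between the member sums, Mageb18, a gene of the MAGE family, had 447 (TN) and 1222 CPM (1cyc) in members, a ratio of 2.73 (1.82 to 4.08), and 13.5 and 8.55 CPM in the reference. Dmd, dystrophin, had a ratio of 2.75 in members (1.60 to 4.67) and 0.893 in the reference. Fgf14, an intracellular regulator of sodium channels, had 1.92 (1.52 to 2.42) and 1.14. Prpf4b, a kinase of the splicing machinery, had 3.22 (1.77 to 5.79) and 1.70, and Ccnl2 2.10 (1.36 to 3.20) and 1.43. On the lower side, Ghr had 0.633 in members (0.544 to 0.734) and 0.698 in the reference, so that both classes had less of it in 1cyc. Abca8a, a transporter gene of the fibroblast list, had 0.217 in members (0.0435 to 0.670; 3 UMIs in 1cyc) and 0.583 in the reference, and that list stood at 444 CPM in 1cyc members against 1221 CPM in TN members. Adamts5, a matrix protease, had 0.2498 (0.0497 to 0.776; 3 UMIs) and 0.258. Slc24a3, a sodium and calcium exchanger, had 0.425 (0.226 to 0.739) and 1.05, and Glul, glutamine synthetase, 0.321 (0.101 to 0.790; 5 UMIs) and 1.09. Of the marker genes themselves, given as a description since they chose the members, the 1cyc over TN ratios in members were 1.12 for Nnat, 0.970 for Slc7a10, 0.676 for Tshr and 0.590 for Aldh1a1.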

How the data were processed

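Single-nucleus RNA was profiled in 1 TN and 1 1cyc library. The authors deposited raw UMI counts per gene and barcode, made with Cell Ranger 3 on mm10, per the submitters' processing notes; the software version is 3.1.0, per the file headers. The annotation, and any use of introns or strand, is not given in the sources used here. Barcodes were filtered before deposit, per the labels' design text.

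The members and the gene lists were chosen with earlier results of these data known. UMIs were summed over members, reference adipocytes and non-adipocyte nuclei (other-class UMIs at least equal to adipocyte UMIs) of each library and scaled to CPM. Genes of the rule and mitochondrially encoded genes were left out of the gene counts, and the rule's genes out of the lists. Levels carry exact Poisson, ratios exact conditional binomial and shares exact Clopper-Pearson intervals at 95%, which leave out the spread between mice. A ratio against 0 UMIs used a floor of 3 counts in the group's sum. Named genes were the 12 highest and 12 lowest in each library, and the 8 highest and 8 lowest between libraries, by the interval bound nearest to 1; genes of the rule, gene models without a name, and haemoglobin, ribosomal protein and mitochondrial genes were passed over. From this and the lists, examples are given. Shares per nucleus came from 1 seeded thinning. No doublet caller was used for the values reported; Scrublet in scanpy 1.11.5 called 10 of 1303 TN (3 of 83 members) and 9 of 1065 1cyc nuclei (0 of 25 members) and served as an alternative. With the 4 marker genes included, the sums hold 142301 and 36357 UMIs of members and 964572 and 935173 of the reference. The CPM of the comparisons divides by these sums without the marker genes. On that scale a gene at 3 counts stands at 21.3 CPM in TN members and 83.3 CPM in 1cyc members. Gene positions came from GENCODE M21 and promoter windows from RefSeq on GRCm38.p6; 3 of the 4 marker genes were matched there, without Tshr. Alternatives changed the member threshold, the marker genes, the reference, the depth, the mitochondrial limit, the adipocyte rule, doublets, scaling (TMM from edgeR 4.0.16, and the median of ratios), the expected-count limit and the thinning. The scripts, in Python 3.11.15 with scipy 1.17.1, were tested on simulated data.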

Additional observations from a re-analysis of the deposited data

Results flagged for a closer look

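A signal of the marker genes also appeared outside the nuclei used. Among 900 TN barcodes that met the adipocyte rule but held 5% or more mitochondrially encoded UMIs, 22 held at least 4 marker UMIs. This is 2.44% (exact Clopper-Pearson 1.54 to 3.68), against 7.52% of the TN adipocyte nuclei used. In 1cyc it was 0 of 1418 such barcodes, which allows a share of up to 0.212% at a floor of 3 counts. The share was 2.63% of the 1cyc adipocyte nuclei used. Depth was not matched in these comparisons.

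These ratios of 1cyc over TN lay on opposite sides of 1 in members and in reference adipocytes, with intervals that excluded 1 in each. Tcf7l1, a transcription factor of the Wnt pathway, had 2.61 in members (1.40 to 4.75; 20 UMIs in 1cyc) and 0.564 in the reference. Ube2h, a ubiquitin-conjugating enzyme, had 2.04 in members and 0.876 in the reference. Adipor2, an adiponectin receptor, had 0.529 in members and 1.11 in the reference. The adipocyte identity list had 0.923 and 1.03, and the amino acid transporter list 0.846 and 1.08. Ghr held 1279 of the identity list's 3349 UMIs in TN members and 207 of 790 in 1cyc members. Its own ratios were 0.633 in members and 0.698 in the reference, below 1 in both. The identity list was not summed without Ghr, so its opposite directions cannot be read as those of its other genes. None of these differences was tested, since each condition was 1 library.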

How the results depend on the processing

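No paired analysis was possible because each condition had 1 library. Every alternative chosen at the outset was run; 2 others, leaving out haemoglobin-rich barcodes and requiring 2 marker genes, were chosen after seeing the data. No ratio among the main results changed direction under any alternative run. Of the values for single named genes under alternatives, 968 moved little, 55 moved and 1 reversed: Dock4 between the member sums, at 1.09 with Nnat left out of the sum against 0.290.

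Member share. In TN it was 14.9% at a mitochondrial limit of 2%, 5.24% with no limit, 14.7% for nuclei of at least 1000 UMIs, 4.99% without Nnat and 5.80% with at least 2 genes required; in 1cyc it was 1.06% with no limit.

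Counts of genes. At 5 expected UMIs, 393 higher and 714 lower in TN, 109 and 315 in 1cyc, and 47 and 109 between member sums; at 20, 88 and 179, 13 and 55, and 5 and 2. These limits change the number of genes measured. With TMM 68 and with the median of ratios 70 were higher in 1cyc. At the 2% limit 23 were higher and 83 lower in 1cyc, and 7 lower between member sums. Between member sums 6 were higher without Nnat, 7 at a threshold of 6 UMIs and 7 at 1000 UMIs.

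White list. The TN ratio was 5.81 without Nnat, 5.90 without Slc7a10, 6.00 without Tshr and 7.25 at the 2% limit; the 1cyc ratio was 7.53 with TMM and 7.65 with the median of ratios.

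Thermogenesis list. TN and 1cyc ratios were 0.252 and 0.203 without Aldh1a1, 0.256 and 0.247 without Slc7a10, 0.246 and 0.243 without Tshr, 0.248 and 0.237 at a threshold of 3 UMIs and 0.1503 and 0.117 with at least 2 genes. In TN it was 0.131 without Nnat, 0.138 at the 2% limit and 0.240 with no limit.

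Markers read in nuclei chosen without them. In TN, Nnat had 28.8 at the 2% limit, 27.03 with no limit and 19.2 at 1000 UMIs, Slc7a10 20.5 at the 2% limit, and Aldh1a1 29.5 at that limit and 43.1 with no other-class UMI; in 1cyc Nnat had 73.8 with no limit. The share of members with Adrb3 was 47.0% in TN unthinned, and 36.1% and 50.0% in TN and 1cyc thinned to 1000 UMIs; for Car3 it was 95.2% unthinned and 96.7% and 100% at 1000. The causes were not tested. The 1cyc sum of 36357 UMIs limits what is measured there to 534 genes.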

Other observations

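Lists that belong to no comparison above gave these values in members over reference adipocytes. The glucose uptake and glycolysis list had ratios of 0.834 in TN (0.695 to 0.995) and 0.572 in 1cyc (0.401 to 0.792), on 140 and 37 UMIs in members. Thyroid hormone action genes had 1.09 (0.992 to 1.20) and 0.966 (0.800 to 1.16), and retinoid metabolism genes without Aldh1a1 0.598 (0.431 to 0.812) and 0.820 (0.483 to 1.31). The adipokine list had 1.71 (1.59 to 1.82) and 1.60 (1.42 to 1.80).

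Haemoglobin and other erythroid genes stood at 192 CPM in TN members and 28727 CPM in the TN reference, where 3 of 966 barcodes held at least 5% haemoglobin UMIs, and at 194 and 257 CPM in 1cyc. TN adipocyte nuclei with 2 or 3 marker UMIs held these genes at 168551 CPM. Pericyte or smooth muscle genes held 8 and 1 UMIs in TN and 1cyc members, skeletal muscle genes 2 and 1, lymphoid genes 2 and 0, Schwann genes 8 and 9, and stress and immediate early genes 1 and 0.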
